A study of Macaca mulatta with 10 samples.

Results

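The mammalian mitochondrial ribosome is built from nuclear-encoded proteins whose gene symbols begin with MRPL for the large subunit and MRPS for the small one. All probe sets of a rhesus macaque liver array whose annotation gives exactly 1 symbol beginning with MRPL or MRPS were taken, with no demand on their signal. This gave 97 of 52865 probe sets, which stand for 62 genes. The reference gene table (assembly T2T-MMU8v2.0) lists 77 protein-coding genes with such symbols, and 62 of them had a probe set. A further probe set paired with a second gene symbol beside MRPS22 was left out by the rule.

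Mitochondrial ribosomes translate only the few membrane proteins of the respiratory chain and ATP synthase that mitochondrial DNA encodes, while their own proteins are made in the cytosol and imported. A core of proteins with bacterial counterparts is joined by proteins found only in mitochondria, and assembly depends on rRNA transcribed inside the organelle. Liver is rich in mitochondria, whose oxidative phosphorylation supports urea synthesis, gluconeogenesis and fat oxidation. Of the 62 genes, 42 belong to the large subunit and 20 to the small one, and 34 have a bacterial counterpart while 28 are specific to mitochondria. MRPS18A and MRPS30 are counted with the large subunit, where they are located in spite of their names.

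Livers of 5 brain-dead rhesus macaques (Macaca mulatta) were compared with livers of 5 living donors, each hybridised to 1 array. Brain death was brought about by inflating a balloon catheter outside the dura and maintained for 6 h per the sample labels but 5 h per the series' design text, with pressure supported by fluid, vasopressin, dopamine or a combination. The brain-dead animals were 2 females aged 7 and 18 years and 3 males, of which 2 were aged 7 years and 1 has no age in the labels. The controls were 3 females aged 16, 10 and 4 years and 2 males aged 20 and 10 years, ventilated under anaesthesia for 1 h. Length of anaesthesia and vasoactive drugs differed together with brain death, and these cannot be told apart. All livers were flushed in situ with UW preservation solution, and total RNA was extracted with Trizol, cleaned on RNeasy columns and labelled with biotin.

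The values are MAS5 signals, an intensity on a linear scale that had been brought to a common trimmed mean of 1000 on every array. Array medians ran from 175 to 227, and 5 arrays a group bound how small a difference can be seen. The hepatocyte list, set up to check the tissue, had 7 measured genes. HP, SERPINA1 and FGB had mean signals of 124553, 122368 and 110206 in brain-dead animals and 136434, 137093 and 123839 in controls. APOA1, AHSG and TAT averaged 91296, 68119 and 43780 in brain-dead animals and 115860, 89565 and 62534 in controls. APOB averaged only 262 in brain-dead animals and 304 in controls, not far above the array medians. Tests were confined to probe sets brighter than the array median on 5 or more of the 10 arrays. In this way 91 member probe sets of 61 genes passed, and 81 of the 97 lay above the median on every array. The 6 below the filter were 2 of MRPL44, 1 each of MRPS14, MRPS5 and MRPS18C, and the only probe set of MRPS6. Of the 97, 14 are of the _s_at type, which can bind transcripts of more than 1 gene.

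Both animals numbered 1 stood apart for this family. Centred on each probe set's mean over all 10 arrays, the 91 member probe sets had a median log2 signal of -0.45, 0.25, 0.18, 0.43 and 0.15 in brain-dead animals 1 to 5, and of -0.88, 0.085, -0.071, 0.28 and 0.11 in control animals 1 to 5. The same median over all 26653 probe sets tested was 0.13 in brain-dead animal 1 and 0.083 in control animal 1. These were thus the arrays with the lowest signal of the family in either group, although their overall level was not low. Control animal 1 held the lowest signal of all arrays for 49 of the 91 and brain-dead animal 1 for a further 23. Exactly these arrays were the 2 lowest for 44 of 91 member probe sets (48.4%), against 5.56% of all probe sets tested. Cytosolic ribosomal proteins and subunits of the respiratory chain, lists added after seeing the data, showed it for 53.4% and 45.5% of their probe sets. The ratio of 3' to 5' signal of the GAPDH control probe sets was 0.932 in brain-dead animal 1 and 0.850 to 1.25 in the other brain-dead animals, against 1.03 in control animal 1 and 0.962 to 1.12 in the other controls. That ratio for actin was 1.15 in brain-dead animal 1 and 1.20 to 1.38 in the other brain-dead animals, against 1.24 in control animal 1 and 1.28 to 1.41 in the other controls. That for EF1a was 0.738 in brain-dead animal 1 and 0.678 to 0.716 in the other brain-dead animals, against 0.676 in control animal 1 and 0.680 to 0.709 in the other controls. Animal 1 thus had the lowest actin ratio of either group, while its EF1a ratio was the highest among brain-dead animals and the lowest among controls. The part of RNA quality in the low signals was not tested, and results are given below with and without both animals.

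**Figure D1:**
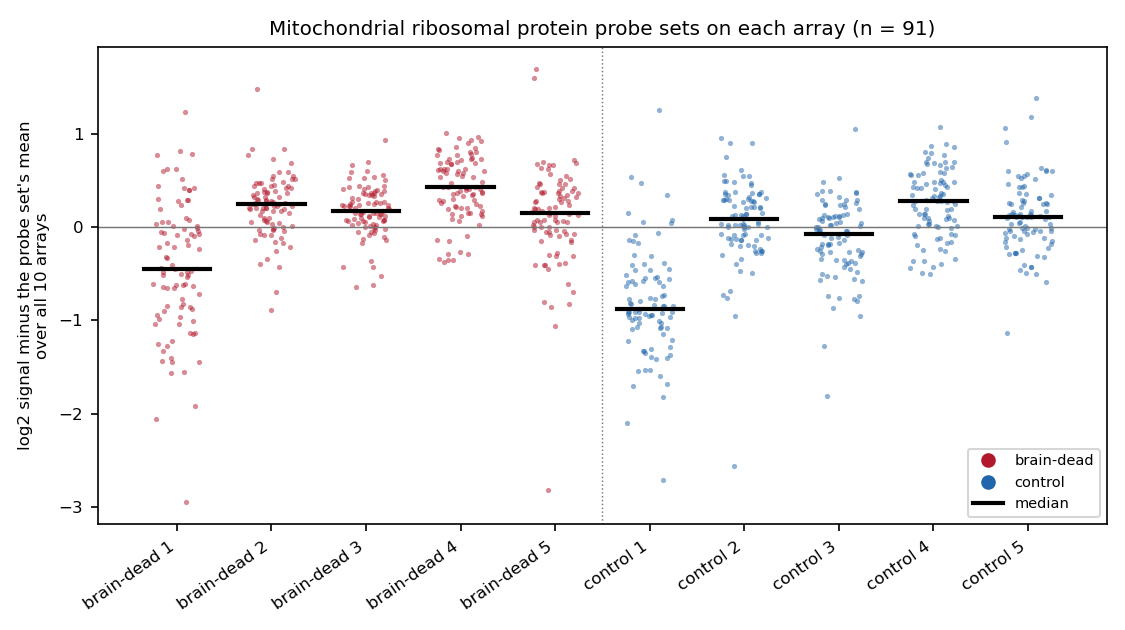
Log2 signal of the 91 member probe sets that passed the filter on each array, less each probe set's mean over all 10 arrays (points), with the median per array (bar), brain-dead animals left and controls right. Medians are -0.45 in brain-dead animal 1 and -0.88 in control animal 1, and lie between -0.071 and 0.43 on the other arrays.

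The question of the comparison is how brain death is reflected in the liver transcriptome before recovery. No mitochondrial ribosomal protein probe set passed the test in either direction: of 91, 0 were higher and 0 lower at an adjusted p under 0.05 (limma, Benjamini-Hochberg over all 26653 probe sets tested), where 6.1% of all probe sets were called, 2.72% higher and 3.39% lower. The lowest adjusted p of a member was 0.0549 (limma). Members were called in 7 of 23 alternative settings (at most 10), and in none of these was their share above that of all probe sets. At an unadjusted p under 0.05 in limma, 14 members lay higher (15.4%, against 11.5% of all probe sets) and 2 lower (2.2%, against 12.2%). The groups did not overlap for 3 of 91 members, all higher in brain death, which is 3.3% against 6.93% of all probe sets tested (3.33% higher and 3.6% lower). Changes were small in most members. The median log2 change was 0.18 (quartiles 0.019 and 0.44), against a median of -0.0027 over all probe sets tested, and 69 of 91 members (75.8%) had a change above 0, against 49.8% of all. Among the full 97, without any filter, 70 lay above 0 with a median of 0.18. A log2 change of more than 1 either way was found in 4 members (4.4%), against 9.87% of all probe sets.

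Among arrays left out singly, the median of the family moved most without either animal numbered 1. It was -0.0041 without control animal 1, when 45 of 91 members lay above 0, and 0.33 without brain-dead animal 1, when 78 did. Without both it was 0.14, with 66 of 91 above 0 and no member called (lowest adjusted p = 0.0928, limma), against 674 probe sets (2.53%) called among all. At an unadjusted p under 0.05 in limma, 15 members then lay higher and 3 lower, against 9.66% and 11% of all probe sets. The groups did not overlap for 8 members higher and 3 lower, against 5.56% and 6.37%. With sex in the model the median was 0.10 and 60 of 91 lay above 0. The 95% interval of the change lay within a 2-fold difference either way for 54 of 91 members, so for the other 37 a change of 2-fold was not excluded at this number of arrays. Fewer cells of a type and less RNA per cell cannot be told apart in such bulk samples.

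Markers of other cells were read beside the family. Of 8 neutrophil genes 4 were measured and 2, S100A8 and S100A9, rose, with log2 changes of 3.85 ± 0.74 and 3.54 ± 0.63 (SE, n = 5 each, limma adjusted p = 0.0128 and 0.00911). The summed signal of the 4 measured was 7428 to 56363 in brain-dead animals and 694 to 5539 in controls. S100A12 and MPO had probe sets only below the filter, and FCGR3B and CXCR2 had none with 1 symbol. CSF3R averaged 406 in brain-dead animals and 256 in controls, a change of 0.76 ± 0.34 (SE, limma adjusted p = 0.195). ELANE, also of this list, averaged 226 in brain-dead animals and 255 in controls, a change of -0.38 ± 0.40 (SE, limma adjusted p = 0.612). All 7 hepatocyte genes had changes below 0 (median -0.25) without passing the test, with sums of 527821 to 603226 in brain-dead animals and 589233 to 750434 in controls. None of 9 Kupffer cell and macrophage, 7 endothelial, 4 stellate cell and fibroblast, 3 cholangiocyte, 3 lymphocyte and 2 erythroid genes measured was called, with median changes of -0.33, -0.46, -0.13, 0.24, 0.19 and -0.43. The part of cell composition in the values of the mitochondrial ribosomal proteins was not tested.

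**Figure D2:**
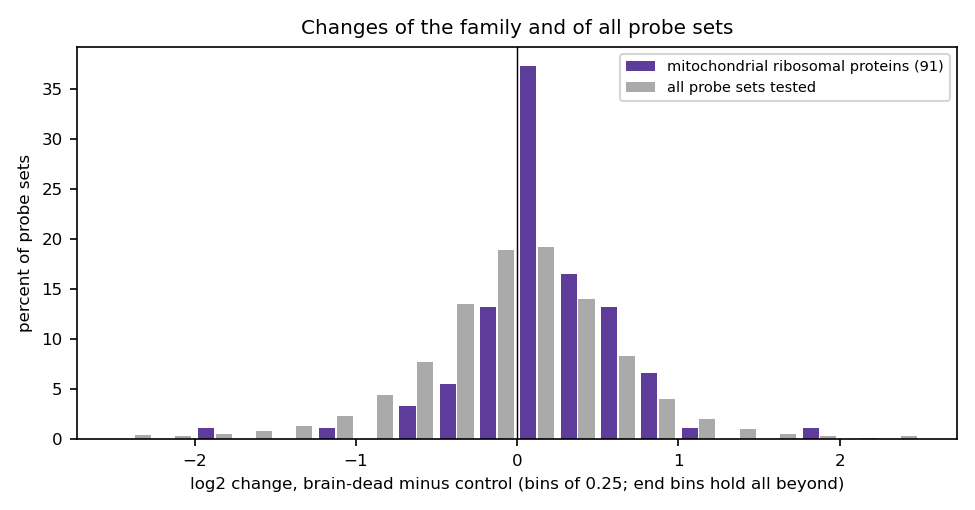
Share of probe sets by log2 change, brain-dead minus control, in bins of 0.25 with the end bins holding all beyond, for the 91 member probe sets (violet) and all 26653 tested (grey). The bin from 0 to 0.25 holds 37.4% of members and 19.2% of all probe sets.

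In the small subunit, 13 of 19 genes measured had a change above 0 with 1 probe set a gene, the one of highest mean signal (median 0.20). MRPS12, counterpart of the bacterial protein that guards the accuracy of decoding, gave the lowest p of the family on its dimmest probe set. Its signal there was 547, 656, 692, 1025 and 805 in brain-dead animals 1 to 5, against 286, 540, 319, 454 and 463 in control animals 1 to 5. Every brain-dead animal lay above every control, though brain-dead animal 1 exceeded control animal 2 by only a narrow margin. The log2 change was 0.86 ± 0.25 (SE, n = 5 each, limma adjusted p = 0.0549) and 0.84 without both animals numbered 1 (adjusted p = 0.0928, limma). The other MRPS12 probe sets had changes of 0.64 and 0.34, and the brightest of them had a signal of 3114 in brain-dead animal 1 and 2877 in control animal 1, against 6849 to 8653 in the other brain-dead animals and 4733 to 6970 in the other controls.

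MRPS2, a core protein with a bacterial counterpart, had a signal of 4396, 3517, 4713, 5577 and 5265 in brain-dead animals 1 to 5, against 2030, 3026, 2541, 3373 and 3310 in control animals 1 to 5. The groups did not overlap, with 3517 in brain-dead animal 2 next to 3373 in control animal 4. Its log2 change of 0.72 ± 0.22 did not pass (SE, n = 5 each, limma adjusted p = 0.0649), and its 95% interval ran from 0.26 to 1.19. MRPS2 passed in 4 of 23 alternative settings, over which the limma adjusted p ran from 0.0386 to 0.144. MRPS22, specific to mitochondria and mutated in human infants with cardiomyopathy and tubular disease, also had groups without overlap, again on its dimmer probe set. That probe set read 713, 615, 532, 537 and 465 in brain-dead animals 1 to 5 and 374, 400, 374, 440 and 308 in control animals 1 to 5. The change was 0.59 ± 0.20 there (SE, n = 5 each, limma adjusted p = 0.101) and 0.29 ± 0.20 on the brighter probe set (adjusted p = 0.407, limma).

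MRPS5, which lies near the path of the mRNA into the ribosome, had a change of 0.83 ± 0.32 (SE, n = 5 each, limma adjusted p = 0.135), and of 1.17 on a second probe set. On the brighter one its signals of 3076 to 5191 in brain-dead animals overlapped those of 1011 to 3549 in controls. MRPS23, specific to mitochondria, had a change of 0.69 ± 0.42 and MRPS7, a core protein, of 0.20 ± 0.21 (limma adjusted p = 0.345 and 0.603). Neither difference exceeded the spread between animals.

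By brightest probe set, the lowest changes of the family were those of 3 small subunit genes, MRPS28, MRPS24 and MRPS14. MRPS28, a core protein, had a change of -0.54 ± 0.34 and, on its second probe set, of -0.71 ± 0.38 (SE, n = 5 each, limma adjusted p = 0.358 and 0.275). The brighter probe set read 3456, 8300, 6066, 7629 and 3806 in brain-dead animals 1 to 5, against 3700, 9059, 9302, 10571 and 9877 in control animals 1 to 5. Control animal 1 lay with the brain-dead animals here, and without both animals numbered 1 the groups did not overlap on either probe set, with changes of -0.65 and -0.70 (limma adjusted p = 0.178 and 0.172). MRPS24, counterpart of a bacterial protein at the mRNA entry, had a change of -0.51 ± 0.34 (limma adjusted p = 0.392). MRPS14, a core protein of the head of the subunit, had the lowest p among members with a change below 0, on the dimmer of its 2 tested probe sets. Its signal there was 1781, 926, 1112, 1406 and 966 in brain-dead animals 1 to 5, against 4107, 2197, 1744, 1532 and 3578 in control animals 1 to 5. Only brain-dead animal 1 reached into the control range. The log2 change was -1.02 ± 0.31 (SE, n = 5 each, limma adjusted p = 0.0643), while the brighter probe set of MRPS14 had a change of -0.35 ± 0.43 (limma adjusted p = 0.667).

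MRPS26, specific to mitochondria, had the largest change of the family, and its probe sets disagreed in size. The probe set that was brighter over all arrays stood for the gene where 1 was taken per gene. Its signal was 15342, 5890, 12465, 12621 and 21112 in brain-dead animals 1 to 5. In control animals 1 to 5 it was 1514, 1099, 3899, 4599 and 14738. Control animal 5 lay among the brain-dead animals. The change was 1.88 ± 0.58 (SE, n = 5 each, limma adjusted p = 0.0727), and 2.41 without control animal 5, where it passed (limma adjusted p = 0.0152). It passed in 2 of 23 alternative settings, over which the limma adjusted p ran from 0.0143 to 0.221. The other MRPS26 probe set read 4033 to 8199 in brain-dead animals and 2937 to 7879 in controls, a change of 0.18 ± 0.28 (limma adjusted p = 0.741). In controls alone the probe set with the larger change was the dimmer, averaging 5170 against 5600 for the other. In brain-dead animals it averaged 13486 against 6167, so its higher mean over all arrays came from that group. The 2 probe sets give no common size for this gene.

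**Figure D3:**
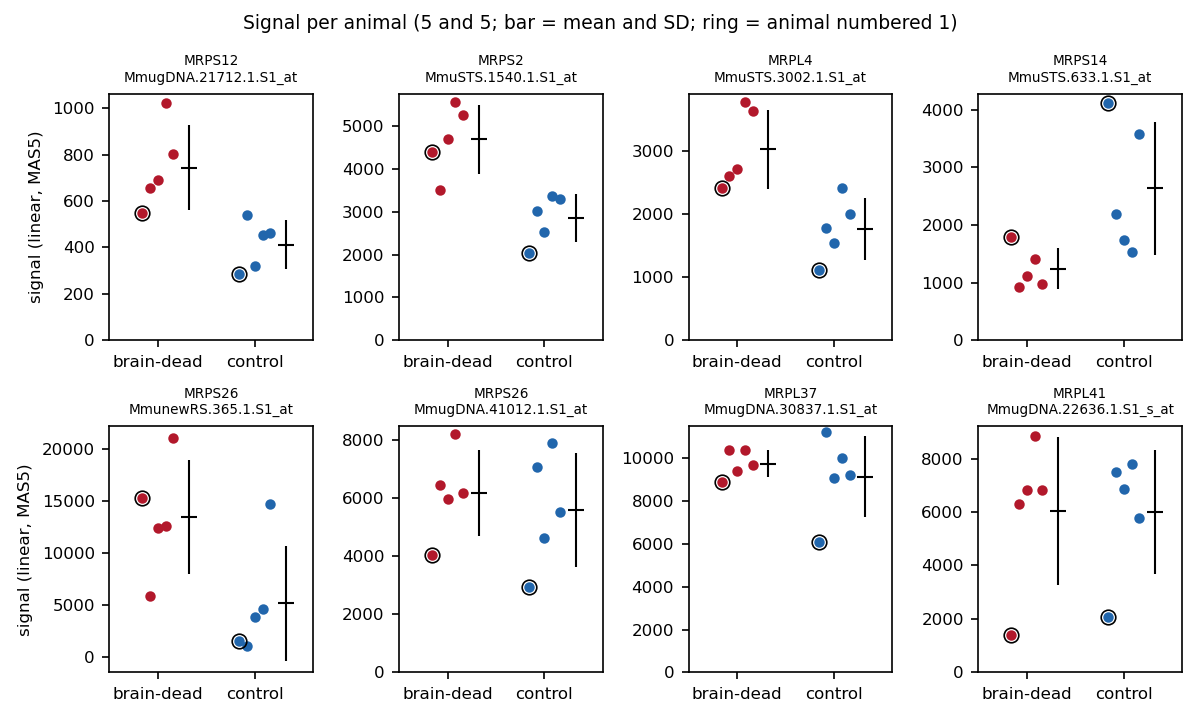
Deposited signal of 8 member probe sets in each animal (points, linear scale), with mean and SD per group (n = 5 each) and a ring around the animal numbered 1, brain-dead left and control right in each panel. The groups do not overlap for MRPS12 and MRPS2, the 2 probe sets of MRPS26 differ, and MRPL41 is low in animal 1 of either group.

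In the large subunit, 33 of 42 genes measured had a change above 0 (median 0.17). MRPL58, a peptidyl-tRNA hydrolase that rescues stalled ribosomes and has become a ribosomal subunit, had the largest value at 0.92 ± 0.41 (SE, n = 5 each, limma adjusted p = 0.199). Its signal was 3054, 2175, 2505, 2780 and 1673 in brain-dead animals 1 to 5, against 492, 1764, 1472, 3184 and 788 in control animals 1 to 5. The groups overlapped through control animals 2 and 4, and the change was 1.25 without control animal 4, where it passed (limma adjusted p = 0.0490), and 0.49 without both animals numbered 1 (limma adjusted p = 0.487). MRPL38, specific to mitochondria, had a change of 0.73 ± 0.25 (limma adjusted p = 0.102). Its signals of 5530 to 9290 in brain-dead animals met those of 2410 to 5577 in controls by a narrow overlap.

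MRPL4, whose bacterial counterpart lines the tunnel through which the new peptide leaves, had a change of 0.80 ± 0.24 (SE, n = 5 each, limma adjusted p = 0.0694). It read 2415, 2608, 2711, 3773 and 3631 in brain-dead animals 1 to 5, against 1111, 1777, 1542, 2419 and 1996 in control animals 1 to 5, so that control animal 4 just exceeded brain-dead animal 1. MRPL4 too passed in 4 of 23 alternative settings, over which the limma adjusted p ran from 0.0233 to 0.156. The dimmest of 3 MRPL4 probe sets ran the other way, at -1.77 ± 0.71 (limma adjusted p = 0.154), with signals of 30.5 to 660 in brain-dead animals and 328 to 497 in controls. MRPL9 had changes of 0.70 ± 0.29 and 0.86 ± 0.31 on its 2 probe sets (limma adjusted p = 0.165 and 0.113), with signals on the brighter of 9032 to 14909 in brain-dead animals and 3769 to 12635 in controls. MRPL58, MRPL9 and MRPS5 each passed in 1 of 23 alternative settings.

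MRPL12 and MRPL11, of the stalk that receives the translation factors, did not pass the test, and the groups overlapped for both. MRPL12, which also binds the mitochondrial RNA polymerase in human cells, averaged 6618 ± 1619 in brain-dead animals and 4942 ± 1646 in controls (SD, n = 5 each), a change of 0.46 ± 0.28 (SE, limma adjusted p = 0.344). MRPL11, at the base of the stalk, averaged 3861 ± 1406 in brain-dead animals and 3586 ± 1064 in controls (SD, n = 5 each), a change of 0.078 with a 95% interval of -0.63 to 0.79. MRPL44, which carries a ribonuclease-like domain, had a change of -0.0067 ± 0.28 (limma adjusted p = 0.993), and 2 of its 3 tested probe sets lay above 0. MRPL41, specific to mitochondria and described as promoting apoptosis, had a change of -0.080 with an interval of -1.13 to 0.97. Its signal was 1402 in brain-dead animal 1 and 6307 to 8832 in the other brain-dead animals, against 2076 in control animal 1 and 5786 to 7796 in the other controls. That interval reaches past a 2-fold difference towards lower values. For MRPL37, chosen with its values known, the interval of -0.31 to 0.55 was narrower.

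Below 0 in the large subunit were MRPL53 (-0.33 ± 0.48), MRPL55 (-0.29 ± 0.24), MRPL19 (-0.28 ± 0.28), MRPL23 (-0.26 ± 0.37) and MRPL34 (-0.16 ± 0.32), with limma adjusted p-values from 0.500 to 0.806. MRPL23 lies beside the exit of the peptide tunnel and is a docking place for the membrane insertion machinery in bacteria. None of these values differed from 0 beyond the spread between animals, and those of MRPL53, MRPL23 and MRPL34 were above 0 without brain-dead animal 1 (0.15, 0.071 and 0.10).

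**Figure D4:**
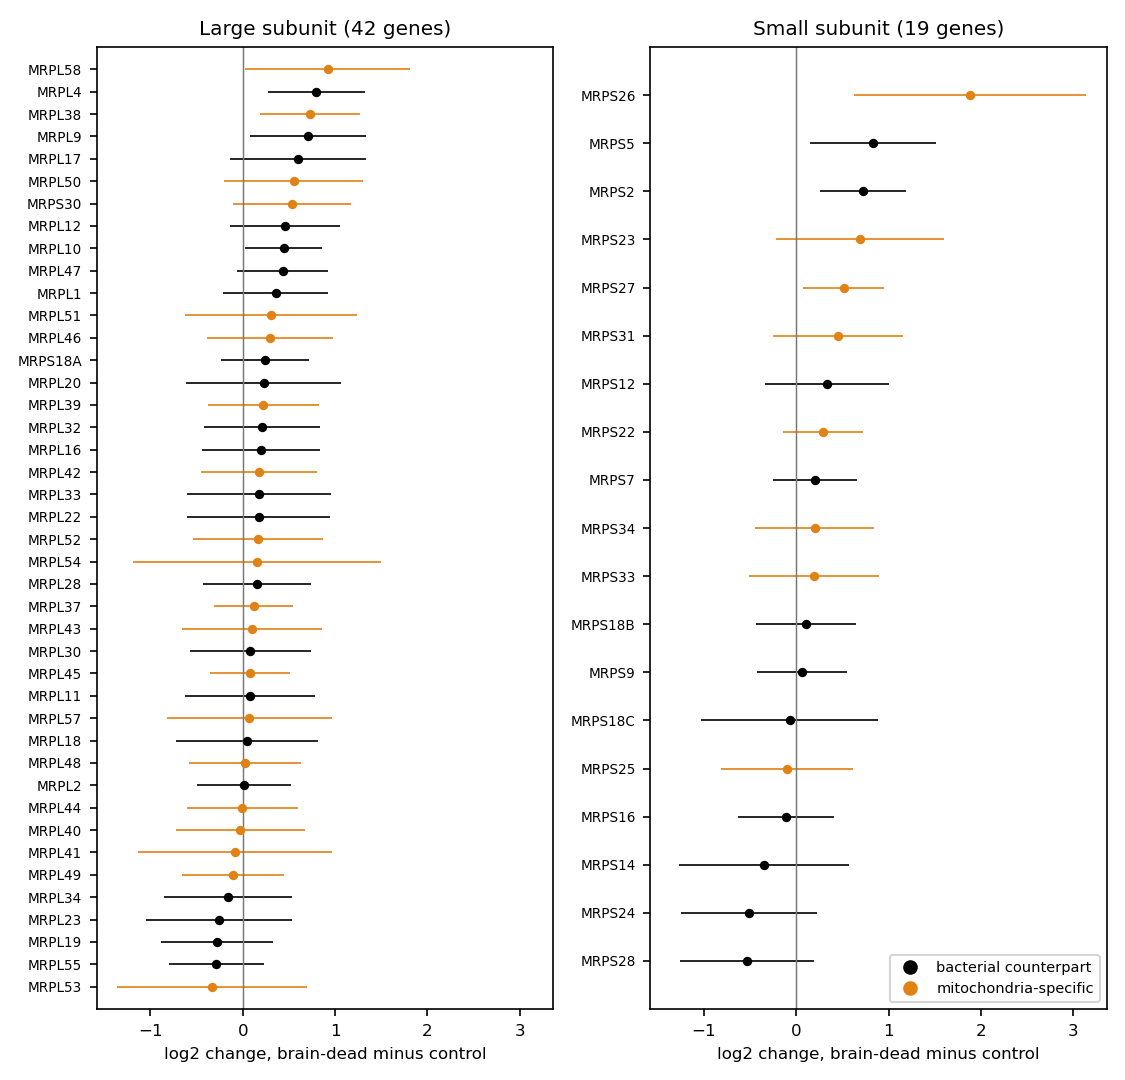
Log2 change, brain-dead minus control, with its 95% interval from limma for each of 61 measured genes (1 probe set a gene, n = 5 animals each), large subunit left and small subunit right, black for genes with a bacterial counterpart and orange for those specific to mitochondria. Points sit above 0 for 33 of 42 and 13 of 19 genes, and no gene passed the adjusted threshold.

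Counts were also taken by class of the family. With 1 probe set a gene no member was called, where 2.9% of genes were higher and 3.87% lower. In that count 24 of 33 genes with a bacterial counterpart lay above 0 (median 0.17) and 22 of 28 specific to mitochondria (median 0.18), against 49.5% of all 9835 genes measured. No test of a difference between classes was made. For 23 genes several probe sets were tested, and those of 17 genes shared a sign, and the median distance between a gene's lowest and highest change was 0.30. The 6 with mixed signs were MRPL4, MRPL39, MRPL51, MRPL44, MRPS25 and MRPL2.

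Most members varied together from animal to animal. The correlation of a member's log2 signal with the median of the other members had a median of 0.80 over the 10 arrays and was above 0 for 82 of 91. Without both animals numbered 1 the median was 0.50 over 8 arrays, and 77 of 91 were above 0. The number of members with a correlation above 0.8 was 46 over the 10 arrays and 10 over the 8. No such correlation over all probe sets is given here. MRPL46, chosen with its values known, followed the family most closely in either case (0.99 and 0.94). The lowest correlation over 10 arrays was that of the dimmer MRPS14 probe set, at -0.63 (-0.38 over 8). Since all members are read from the same libraries, these correlations describe shared arrays as well as shared genes.

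Companion genes of mitochondrial translation, biogenesis and content were read in 7 lists. Of 123 symbols listed, some of them alternative names of 1 gene, 87 were measured and none was called (lowest adjusted p = 0.0619, limma). At an unadjusted p under 0.05 in limma, 18 of the 87 lay higher and 4 lower. Among all 9835 genes, also with 1 probe set a gene, 1170 lay higher and 1298 lower, which is 25.1% either way. Subunits with other names, such as DAP3, had 3 of 4 genes above 0 (median 0.17). Genes of ribosome assembly and rRNA modification had 16 of 21 above 0 (median 0.31), and those of mitochondrial RNA synthesis and processing 15 of 19 (median 0.41). TFAM, which packages mitochondrial DNA and starts its transcription, averaged 7950 ± 1151 in brain-dead animals and 5639 ± 1291 in controls (SD, n = 5 each), a change of 0.51 ± 0.21 (SE, limma adjusted p = 0.162). The lowest adjusted p was that of RPUSD4, a pseudouridine synthase of the large mitochondrial rRNA chosen after its values were seen, at 0.88 ± 0.26 (limma adjusted p = 0.0619). POLRMT, the mitochondrial RNA polymerase, is not analysed here.

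Translation factors showed no common direction, with 5 of 11 above 0 (median -0.017). TUFM, the elongation factor that brings charged tRNA to the ribosome, averaged 11795 ± 2305 in brain-dead animals and 13146 ± 1205 in controls (SD, n = 5 each), a change of -0.17 ± 0.19 (SE, limma adjusted p = 0.624). Enzymes that charge mitochondrial tRNA had 9 of 16 above 0 (median 0.15). Of the regulators of mitochondrial biogenesis 5 of 8 lay above 0 (median 0.11). PPARGC1A, the coactivator that drives mitochondrial genes in fasting liver, had a change of -0.55 ± 0.38, NRF1 of 0.050 ± 0.21 and MYC of -0.18 ± 0.20, none past the threshold (limma adjusted p = 0.403, 0.916 and 0.630). The list of other mitochondrial genes, such as the pore VDAC1, had 4 of 8 above 0 (median 0.098). Where all probe sets of these genes were counted, a number not given here, 2 rose, while 2.72% of all probe sets tested were called higher. Both were of the _s_at type and are named here with their values known. They belong to PDE12, a phosphodiesterase that trims mitochondrial mRNA tails (1.28 ± 0.31), and to MARS2, the methionyl-tRNA synthetase of mitochondria (1.25 ± 0.31), with limma adjusted p-values of 0.0296 and 0.0328.

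**Figure D5:**
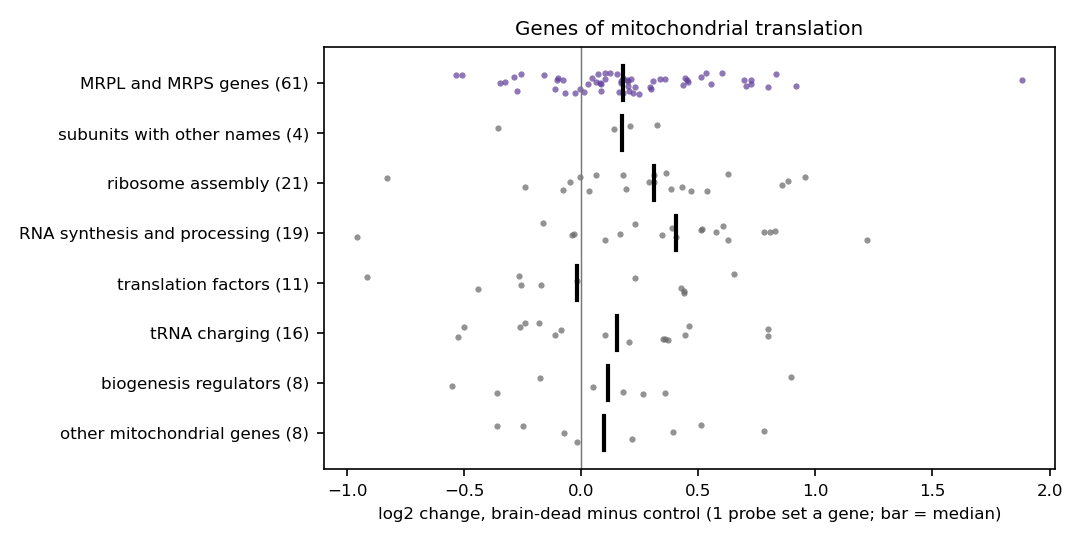
Log2 change, brain-dead minus control, of the 61 MRPL and MRPS genes and of 7 companion lists (1 probe set a gene, points), with the median of each list (bar). The medians run from -0.017 for translation factors to 0.41 for RNA synthesis and processing, and no gene plotted passed the threshold.

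Set beside the most similar families, on lists added after seeing the data, 69 of 91 member probe sets had a change above 0, against 36 of 58 of cytosolic ribosomal proteins (median 0.093) and 19 of 88 of respiratory chain and ATP synthase subunits (median -0.18). No probe set of either list was called. Without both animals numbered 1 the counts were 66 of 91, 40 of 58 and 17 of 88, with medians of 0.14, 0.14 and -0.18. The differences between these lists were not tested.

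The change of the members was not shown to differ between the sexes. The interaction of group with sex was called for 0 of 91 members and 0 of 26653 probe sets (limma, Benjamini-Hochberg, lowest adjusted p of a member = 1.00), and at an unadjusted p under 0.05 for 1 member (1.1%) and 3.81% of all probe sets. With 2 or 3 animals of a sex in each group this test has little precision.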

How the data were processed

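The authors deposited 1 MAS5 signal per probe set and array, an intensity on a linear scale. The method is named in the submitters' processing notes, and neither version nor settings are given in the sources used here. A trimmed mean (2% at each end) was 1000 on every array. Here log2 of each signal was taken with nothing added and no further normalization, and 99 control probe sets were dropped. Of 52865 probe sets, 24969 had 1 gene symbol in the platform annotation, dated 2016, 361 had several and 27535 had none there. The gene IDs of 97 of 97 members were found in the reference gene list.

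The fit over 26653 probe sets used limma 3.58.1 in R 4.3.3 (lmFit, eBayes with trend, group alone), with Benjamini-Hochberg adjustment and a threshold of 0.05, and was tested on simulated data. Errors of changes are standard errors of limma. No 2 arrays held identical values. The R package data.table (version 1.17.8), Python 3.11.15 and matplotlib 3.10.9 were also used.

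Named members were the 8 genes with the largest and the 8 with the smallest change, any called gene, genes with probe sets of opposite sign of which 1 was called, and 9 genes of known role, of which MRPL3 and MRPS36 are not analysed here. Members and lists were chosen with earlier results of these data known. Alternatives were quantile normalization, median centring, pseudocounts of 16 and 64, other filters, sex or sex and age (without the animal of unstated age), a replicate block, other eBayes settings, array weights, and leaving out arrays.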

Additional observations from a re-analysis of the deposited data

Results flagged for a closer look

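In 11 of 52 groups of 5 values examined, 1 animal lay far from the other 4 of its group (gap to the nearest over the whole range above the critical value for 5 samples), where chance gives about 1 in 20, and every such animal was numbered 1. Brain-dead animal 1 had a signal of 3114 for MRPS12 (others 6849 to 8653), 1402 for MRPL41 (6307 to 8832), 1380 for MRPL23 (3543 to 5041) and 1665 for MRPL53 (7110 to 11292). Control animal 1 had 1089 for MRPS7 (others 1591 to 1777), 1814 for MRPL11 (3549 to 4559), 2076 for MRPL41 (5786 to 7796), 2085 for MRPL23 (4294 to 5743), 3324 for MRPL53 (8326 to 11292), 2915 for MRPS14 (7585 to 9108) and 3700 for MRPS28 (9059 to 10571). The genes share their arrays, so these are not independent observations.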

How the results depend on the processing

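No member was called under quantile normalization, median centring, either pseudocount, no filter, either covariate model, eBayes without trend or robust, or without both animals numbered 1. The filter at the 75th percentile called 2 members higher and 1 lower, with 1 not overlapping, and array weights called 3 and 1. In these settings 3.95% and 4.4% of members were called, against 11% and 8.98% of all probe sets, and the filter left 1.32% of members without overlap, against 9.24% of all. The labels do not say that a replicate number marks shared animals or days. Deviations of same-numbered animals correlated by 0.38, 0.064, 0.13, 0.089 and 0.13, not above 0.1 in every pair, so the numbers were not taken as pairs, and 2 of 5 animals matched their own number best. With the replicate block, 9 members were called higher and 1 lower, which is 11% of members against 11.3% of all probe sets, and companion genes 8 and 2. The block brought MRPS26, MRPL4, MRPS5, MRPS2 and MRPL9 past the threshold (limma adjusted p = 0.0143, 0.0233, 0.0355, 0.0386 and 0.0411). Companion genes called higher were 3 with the filter at the 75th percentile, 1 with sex and age, 4 with array weights and 2 over all probe sets. With that filter, with sex and age, and with array weights, 11%, 3.88% and 8.98% of all probe sets were called either way. In the main fit 2.72% were called higher. Without both animals numbered 1, 11 members did not overlap (8 higher, 3 lower, where 5.56% and 6.37% of all probe sets were higher and lower).

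Leaving out 1 array at a time gave 0 to 4 members called higher, 0 to 1 lower, 3 to 8 not overlapping, 0 to 5 companion genes higher, and a median change of -0.0041 (without control animal 1) to 0.33. Called members made up at most 5.49%, while 2.48% to 8.59% of all probe sets were called, and those without overlap made up 3.3% to 8.79%, against 7.71% to 12.1% of all. The calls came without brain-dead animals 1 and 2 and control animals 4 and 5. Over the same arrays left out, the change ranged from -0.20 to 0.12 for MRPL44, -0.15 to 0.33 for MRPL11, -0.43 to 0.39 for MRPL41, -0.37 to 0.10 for MRPL34, -0.50 to 0.071 for MRPL23 and -0.64 to 0.15 for MRPL53. MRPL44 was also at 0.062 with median centring and 0.044 with array weights, MRPL11 at -0.036 with sex and -0.064 with sex and age, and MRPL41 at 0.041 without both animals numbered 1. Median centring moved the median of all probe sets to 0.066 and of members to 0.25. The cause of these moves was not tested.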
